A study of Mus musculus with 8 samples.

Results

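Mouse chromosome 15 held 1449 merged ATAC-seq regions at or inside protein-coding genes, of 21051 merged regions in the whole series and 3161 on this chromosome. They were found by joining the regions of 3 deposited lists that overlapped by at least 1 bp. A joined region was kept if its midpoint lay on chromosome 15 inside a protein-coding gene or within 1 kb of a gene's start or end. ATAC-seq uses the transposase Tn5, which cuts DNA not wrapped in nucleosomes, so that cut sites pile up at open promoters and enhancers. The cells were Hepa-1c1c7, an established mouse hepatoma line. Potassium chromate, a source of hexavalent chromium, was given for 72 h at 0.1, 0.5 or 1 µM, and untreated cells (0 µM) served as control. Each of these groups had 2 libraries, 8 libraries in all, and the labels name no genotype or other agent.

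The 3 lists belong to the 3 treated doses, and each was deposited for both libraries of its dose and is named with the control. The 0 µM cells had no list among these. With 1 list per dose there is no replicate error, all lists share the control libraries, and the labels do not say how the control entered the calls. An absent region may therefore still have been open, and a listed one need not have been more open than in the control. The libraries at 1 µM carry the prefix N503 and all others N502, which cannot be told apart from the dose. Intervals below are 95% Wilson intervals over regions, genes or promoters. They cover counting error only, and regions of 1 list are not replicates of a dose. Sequencing depth is unknown, because the lists hold no read counts. The lists held 14401, 11130 and 15894 regions at 0.1, 0.5 and 1 µM, of which 1883, 1693 and 2117 lay on chromosome 15. Of 12 hepatocyte marker genes, 6 held a region at any dose (Alb, Apoa2, Foxa1, Foxa2, Cebpb and Nr1h4), against 2 of 5 immune markers, 2 of 5 stromal and endothelial markers and 2 of 3 neuronal markers. Of all 21631 protein-coding genes, 35.1% held one, and sets this small are not set apart from that share.

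Open regions at a gene's start are usually promoters, where general transcription factors and RNA polymerase II assemble. Open regions inside genes include enhancers and alternative starts. CTCF, named in the title of the series, is a zinc finger protein that binds a long motif and, with the cohesin ring, anchors chromatin loops. Chromosome 15 carries genes of the cohesin system, among them Rad21, a cohesin subunit, and Nipbl, the cohesin loader.

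Sequences at gene starts were taken from RefSeq (GRCm38.p6, the assembly of mm10), as windows from 250 bases before to 50 bases after a start. The table had 526 such windows for 422 of the 776 protein-coding genes of chromosome 15. These genes were not spread evenly. No member near a listed start lay between Cct5 (chr15:31590800-31601846) and Myh9 (chr15:77760585-77842175). The promoter and motif values therefore say little about that part of the chromosome. A merged region listed at all 3 doses covered at least 1 bp of 111 of these windows, or 21.1%, against 2697 of 20519 windows on the other chromosomes, or 13.1%. By dose, 25.7% of the chromosome 15 windows were covered at 0.1 µM, 28.5% at 0.5 µM and 27.8% at 1 µM, against 17.7%, 16.8% and 20.7% elsewhere. Only 5 of the 111 windows held the stricter of 2 CTCF motifs, a core of 12 bases of which 8 are fixed, on either strand, and they are shown because CTCF is the factor the study named. Each is written 5′ to 3′ on the gene's strand, with the match in capitals.
Dap, chr15:31224135-31224434, plus strand: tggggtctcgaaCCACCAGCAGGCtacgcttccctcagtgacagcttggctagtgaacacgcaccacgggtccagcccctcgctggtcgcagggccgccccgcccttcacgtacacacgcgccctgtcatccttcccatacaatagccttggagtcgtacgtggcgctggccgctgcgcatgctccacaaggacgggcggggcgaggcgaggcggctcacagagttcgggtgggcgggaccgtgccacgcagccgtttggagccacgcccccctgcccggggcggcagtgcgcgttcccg
Dennd6b, chr15:89196425-89196724, minus strand: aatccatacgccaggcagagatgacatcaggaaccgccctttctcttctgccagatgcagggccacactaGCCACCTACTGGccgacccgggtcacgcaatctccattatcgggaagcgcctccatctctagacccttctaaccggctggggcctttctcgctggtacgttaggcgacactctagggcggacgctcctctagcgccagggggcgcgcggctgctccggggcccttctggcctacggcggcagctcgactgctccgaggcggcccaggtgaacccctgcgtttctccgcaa
Cpne8, chr15:90679339-90679638, minus strand: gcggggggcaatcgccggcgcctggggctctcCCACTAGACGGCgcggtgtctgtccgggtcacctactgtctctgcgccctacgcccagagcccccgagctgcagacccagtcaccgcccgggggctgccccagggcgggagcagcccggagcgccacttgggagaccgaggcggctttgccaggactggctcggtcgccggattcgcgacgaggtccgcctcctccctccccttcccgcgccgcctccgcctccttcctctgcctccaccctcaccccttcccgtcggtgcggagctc
Pphln1, chr15:93398100-93398399, plus strand: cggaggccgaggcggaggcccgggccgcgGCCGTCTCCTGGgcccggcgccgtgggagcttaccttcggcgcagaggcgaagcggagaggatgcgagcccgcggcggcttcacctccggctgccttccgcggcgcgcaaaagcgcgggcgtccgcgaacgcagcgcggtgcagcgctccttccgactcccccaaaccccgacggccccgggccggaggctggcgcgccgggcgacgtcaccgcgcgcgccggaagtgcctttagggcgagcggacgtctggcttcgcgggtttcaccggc
Nr4a1, chr15:101266596-101266895, plus strand: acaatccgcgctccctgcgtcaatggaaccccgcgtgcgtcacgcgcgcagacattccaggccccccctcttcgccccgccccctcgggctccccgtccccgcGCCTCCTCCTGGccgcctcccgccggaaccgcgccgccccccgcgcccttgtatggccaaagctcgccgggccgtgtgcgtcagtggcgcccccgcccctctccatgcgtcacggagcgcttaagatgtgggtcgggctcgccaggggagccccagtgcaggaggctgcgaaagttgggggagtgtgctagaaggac

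These windows belong to Dap, a gene first found in interferon-induced cell death, Dennd6b, a member of the DENN domain family that acts on Rab proteins, Cpne8, a copine that binds membranes in the presence of calcium, Pphln1, periphilin, a partner of the HUSH silencing complex, and Nr4a1, an orphan nuclear receptor. The Dap region was 2586 bp wide, with deposited scores of 31, 23 and 20 at 0.1, 0.5 and 1 µM. The Cpne8 region was 2228 bp wide and scored 26, 18 and 35. The Pphln1 region of 1271 bp scored 36, 13 and 58. The Dennd6b and Nr4a1 regions were narrower, 805 and 829 bp, and scored 7, 14 and 26 at Dennd6b and 16, 10 and 27 at Nr4a1. All 5 windows were rich in G and C, with 64% to 76.7% of their bases and 25 to 53 CpG pairs each. The score is the authors' whole number per region, whose scale is not stated, and it is read here only within a list.

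The stricter CTCF motif occurred in 4.50% of the windows covered at all doses (5 of 111, interval 1.94% to 10.1%), in 3.44% of the 349 chromosome 15 windows without a region and in 2.37% of all 21045 windows. The 111 windows belonged to 98 genes, and some windows of neighbouring genes overlapped. The same letters can thus count more than once, and the intervals treat the windows as separate. The looser form, with 7 fixed bases, which every strict match also fits, occurred in 15.3%, 10.9% and 9.98% of the same sets, with an interval of 9.79% to 23.2% for the covered windows. For both forms the interval of the covered windows held the share of the chromosome 15 windows without a region, so a difference was not detectable with this number of windows. On the other chromosomes, with 2697 covered windows and 15624 without a region, the stricter form occurred in 2.93% (interval 2.36% to 3.64%) and 2.14% (1.92% to 2.38%), and the looser form in 13.3% (12.1% to 14.6%) and 8.53% (8.10% to 8.97%).

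Other letters separated the sets more widely. GGGCGG, the GC box bound by SP1, was in 73.9% of the covered windows, in 41.0% of those without a region and in 46.7% of all windows. CCGGAAG, the core bound by ETS factors, was in 26.1%, 7.16% and 11.7%. TATAAA, the TATA box, was in 4.50%, 12.9% and 12.7%. On the other chromosomes the windows covered at all doses held these 3 motifs in 69.8%, 23.1% and 4.63%, close to the chromosome 15 values. Motifs tied to stress and metals had no common direction. TGANTCA (AP-1) was in 4.50% of covered windows and 6.59% of those without a region. TGACNNNGC (the antioxidant response element) was in 18.0% and 11.7%, and GCGTG (the core of the xenobiotic response element) in 45.9% and 36.4%. TGCNCNC, a loose form of the metal response element with 5 of 7 bases fixed, was in 55.0% and 62.8%. For AP-1 (interval 1.94% to 10.1%) and the metal element (45.7% to 63.9%), the covered interval held the share without a region. On the other chromosomes the metal element was instead higher in covered windows, 59.1% against 52.8% of those without a region. There AP-1 was in 4.97% and 7.71%, the antioxidant element in 16.2% and 12.1% and the xenobiotic element in 56.2% and 33.4%. The median covered window had 27 CpG pairs and 64.3% G and C, against 9 CpG pairs and 56.3% in windows without a region. Each motif was searched on both strands. The GC box and the metal response element overlapped in 26 chromosome 15 windows, and the xenobiotic and metal elements in 39, so the motifs are not independent counts. A match is a description of the letters only.

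The highest-ranked regions did not all have such a start. The windows below belong to 3 of the 8 members with the best mean rank and are shown to contrast their sequence, with matches to the GC box, the ETS core and the AP-1 motif in capitals.
Oxct1, chr15:4026178-4026477, plus strand: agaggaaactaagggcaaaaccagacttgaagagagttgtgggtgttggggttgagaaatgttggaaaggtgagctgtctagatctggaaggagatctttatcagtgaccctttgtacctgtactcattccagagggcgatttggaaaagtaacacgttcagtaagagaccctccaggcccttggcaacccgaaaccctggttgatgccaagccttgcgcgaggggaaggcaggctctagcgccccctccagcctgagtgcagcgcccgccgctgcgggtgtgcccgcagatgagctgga
Fbxo4, chr15:3979524-3979823, minus strand: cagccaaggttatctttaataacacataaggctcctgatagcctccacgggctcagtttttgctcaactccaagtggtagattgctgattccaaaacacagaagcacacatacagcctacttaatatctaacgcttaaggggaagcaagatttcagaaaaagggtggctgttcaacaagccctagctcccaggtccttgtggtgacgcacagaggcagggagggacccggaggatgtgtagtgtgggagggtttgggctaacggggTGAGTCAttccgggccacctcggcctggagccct
Pus7l, chr15:94543458-94543757, minus strand: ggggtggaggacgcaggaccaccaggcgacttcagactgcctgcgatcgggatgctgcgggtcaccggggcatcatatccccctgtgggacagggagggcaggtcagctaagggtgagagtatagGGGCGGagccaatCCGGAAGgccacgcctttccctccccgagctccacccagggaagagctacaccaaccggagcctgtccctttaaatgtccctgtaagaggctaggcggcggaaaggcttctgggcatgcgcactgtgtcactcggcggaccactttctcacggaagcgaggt

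Oxct1 encodes the enzyme that lets cells burn ketone bodies. Its start window held none of these 3 motifs and 11 CpG pairs, although its region was 2431 bp wide and scored 267, 172 and 352. Fbxo4, an F-box protein reported to direct cyclin D1 for degradation, had 7 CpG pairs, 52% G and C and 1 AP-1 match, with a region of 1335 bp and scores of 247, 138 and 252. Pus7l, a pseudouridine synthase relative, and Irak4, a kinase of Toll-like receptor signalling, start in opposite directions within 1 region of 1602 bp. That region scored 129, 100 and 159, and the Pus7l window held 1 GC box, 1 ETS core and 18 CpG pairs. With 11 and 7 CpG pairs, the Oxct1 and Fbxo4 windows lay below the lower quartile of the covered windows, 19.

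The number of members differed between the lists. At 0.1 µM 863 of the 1449 members were listed (59.6%, against 66.8% of the 12618 genic regions of all chromosomes), at 0.5 µM 809 (55.8%, against 54.8%) and at 1 µM 1047 (72.3%, against 77.4%). The chromosome 15 members lay below the genic regions of the other chromosomes at 0.1 and 1 µM, where those reached 67.7% and 78.1%. At 0.5 µM, 55.8% of the chromosome 15 members were listed (interval 53.3% to 58.4%) and 54.6% of the others (53.7% to 55.6%).

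All 3 lists shared 512 members, or 35.3% (interval 32.9% to 37.8%), against 38.3% of the genic regions of all chromosomes and 38.6% (37.7% to 39.5%) of those on the other chromosomes. A single list held 691 members, or 47.7%, against 38.2% elsewhere. By dose, 193 members were listed at 0.1 µM only, 180 at 0.5 µM only and 318 at 1 µM only. These were 13.3%, 12.4% and 21.9% of the members, against 12.1%, 7.68% and 18.3% of the other genic regions. Among the single lists, the share at 0.5 µM only was furthest from the rest of the genome, with intervals of 10.8% to 14.2% on chromosome 15 and 7.20% to 8.19% elsewhere. It was not even along the chromosome: 148 of 1071 members were listed at 0.5 µM only in the first 70 Mb (13.8%), 14 of 127 between 70 and 90 Mb, and 18 of 251 beyond (7.17%), no more than elsewhere. The opposite held for the pair of 0.1 and 1 µM, which alone shared 129 members (8.90%, interval 7.54% to 10.5%) and 14.9% of the other genic regions. The pair of 0.5 and 1 µM had 88 members and that of 0.1 and 0.5 µM had 29, or 6.07% and 2.00%, against 6.23% and 2.08%. Since every list shares the control libraries, these overlaps are not independent of each other. Between genes, chromosome 15 had 1712 merged regions. All 3 lists held 24.6% of these and a single list 60.8%, so the genic members were shared more often than their neighbours outside genes.

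**Figure D1:**
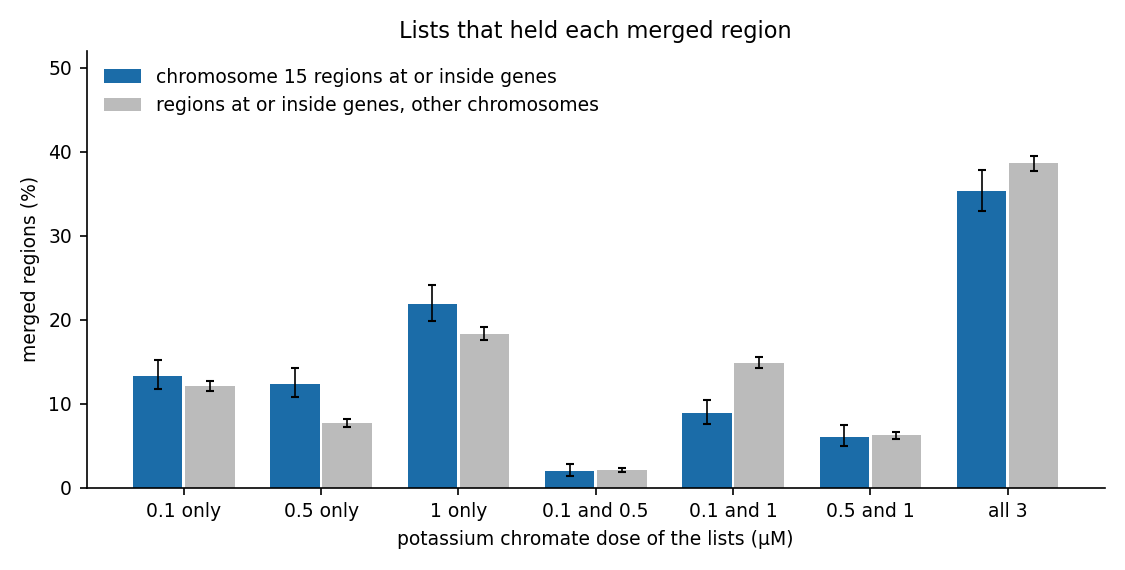
Share of merged regions (%, vertical axis) held by each combination of the 0.1, 0.5 and 1 µM lists, for chromosome 15 regions at or inside genes (blue, n = 1449) and such regions on the other chromosomes (grey, n = 11169); error bars are 95% Wilson intervals. The widest gaps are at 0.5 µM only (12.4% and 7.68%) and at 0.1 with 1 µM (8.90% and 14.9%).

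Members mostly lay inside genes. A gene end, meaning a midpoint at most 1 kb from the start or far end of a gene, was met by 318 members, or 21.9% (interval 19.9% to 24.1%), against 44.1% of the genic regions of all chromosomes and 47.0% of those on the other chromosomes. The other 1131 members lay further inside. The gene-end members were shared more often: 174 of 318 (54.7%, interval 49.2% to 60.1%) were listed at all doses, against 338 of 1131 (29.9%) inside genes. On the other chromosomes these shares were 47.2% and 31.1%. Gene-end members on chromosome 15 were listed at 0.5 µM in 72.0% of cases (interval 66.8% to 76.7%), against 63.8% elsewhere, while at 0.1 and 1 µM they were listed in 70.8% and 82.1%, against 69.8% and 82.2%.

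The gene table gives no strand, so starts were told from far ends only for the 422 genes with a promoter entry. As above, the members near a listed start leave out the part of the chromosome between Cct5 and Myh9. Of these, 153 (36.3%) had a member within 1 kb of a listed start and 22 (5.21%) within 1 kb of the far end. For members listed at all doses the numbers were 93 (22.0%) and 7 (1.66%). In all, 190 members lay within 1 kb of a start, at a median position of -34 bp relative to it (negative is upstream), and 128 of them within 250 bp. Of the 190, 34 lay deeper than 1 kb inside the gene model, at starts of shorter transcripts. Among the members near a start that were listed at all doses, 71.3% lay within 250 bp (72 of 101). Among those listed at 2 doses the share was 81.2% (26 of 32) and among those listed at 1 dose 52.6% (30 of 57), so it did not follow the number of doses.

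Regions listed at more doses were wider. Members listed at all doses had a median width of 706 bp, those at 2 doses 400 bp and those at 1 dose 243 bp, against 620, 382 and 247 bp for genic regions elsewhere. A merged region can only widen as lists are joined, which contributes to this order by construction. The widest class was the gene ends listed at all doses, with a median of 956 bp, against 702 bp on the other chromosomes. Those inside genes had 646 bp, against 530 bp. Over all members the median was 365 bp and the range 199 to 3129 bp. Scores were low for most members: the medians at 0.1, 0.5 and 1 µM were 11, 10 and 11, against 12, 11 and 14 for other genic regions. The median member ranked at percentile 50.3, 49.3 and 43.4 of the lists, against 55.2, 54.8 and 54.4. The upper end was different, since members made up 13, 17 and 18 of the 100 highest scores in the lists, against 55, 61 and 56 for genic regions of all other chromosomes together. For comparison, members made up 6.26%, 7.81% and 6.73% of all regions of the lists, against 54.3%, 57.3% and 55.9% for those other genic regions. They were 11.5% of the merged genic regions of all chromosomes, and chromosome 15 holds 3.59% of the protein-coding genes.

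The members were spread unevenly along the chromosome. Its 776 protein-coding genes, each with 1 kb added on both sides, cover 41.3 Mb with overlaps counted once. This is called gene sequence here and in the windows below. The members had a density of 35.1 per Mb of gene sequence, against 10.9 on the other chromosomes, a ratio of 3.22. By dose the densities were 20.9, 19.6 and 25.4 per Mb, against 7.39, 5.96 and 8.52. Chromosome 15 had the highest such density of the 20 chromosomes listed, followed by chromosome 17 with 17.7. The high number of regions was not particular to genes. Of the merged regions of chromosome 15, 45.8% were genic, against 62.4% on the other chromosomes, so regions between genes made up a larger part here. The share of genes with a region was another matter: 53.0% of chromosome 15 genes (411, interval 49.4% to 56.5%) had a member, against 35.1% of all 21631 protein-coding genes, and chromosomes 1 and 18 had higher shares, 57.6% and 55.0%. A region listed at all doses was found at 268 genes, or 34.5%, against 18.6% of all genes. By dose, 42.8%, 44.6% and 47.2% of the chromosome 15 genes had a member at 0.1, 0.5 and 1 µM, against 26.4%, 24.6% and 30.3% of all genes.

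In windows of 10 Mb counted from the start of the chromosome, the members numbered 166, 97, 196, 203, 196, 117 and 96 in windows 1 to 7, then 60 and 67 in windows 8 and 9, and 181 and 70 in windows 10 and 11. Per Mb of gene sequence the first 7 windows held 54.7, 45.6, 52.3, 36.4, 64.8, 31.1 and 43.8 members. Windows 8 and 9 held 12.1 and 12.2, near the median of 9.59 over 263 windows of the other chromosomes. Windows 10 and 11 held 34.7 and 32.6. No window elsewhere exceeded window 5, the densest being the first window of chromosome 17 with 61.3. The gene Csmd3 alone held 73 of the 196 members of window 5. Regions and genes were each put in windows by their own midpoint, so a gene across a border adds its sequence to 1 window only. At most 4 of the 263 windows exceeded any of the chromosome 15 windows other than 8 and 9, which were exceeded by 99 and 97.

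**Figure D2:**
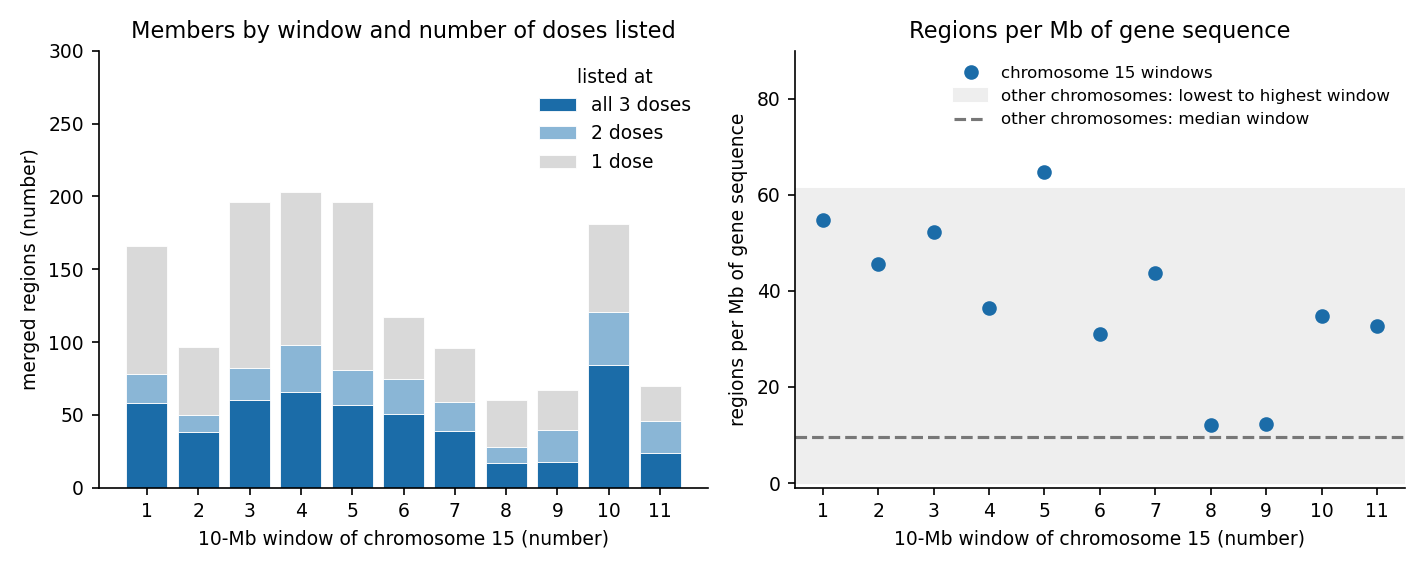
Left, number of members in each 10-Mb window of chromosome 15, split by the number of doses at which they were listed. Right, members per Mb of gene sequence in each window (points), with the median (dashed, 9.59) and the lowest-to-highest range (grey, 0 to 61.3) of 263 windows of the other chromosomes; windows 8 and 9 sit near that median and window 5 above the range.

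The chromosome was therefore described in 3 stretches, chosen after these values were seen. Windows 1 to 7 held 1071 members (73.9%) and 226 protein-coding genes, windows 8 and 9 held 127 and 341, and windows 10 and 11 held 251 and 209. A member was found at 194, 95 and 122 of these genes, or 85.8%, 27.9% and 58.4%. Single megabases varied widely within the stretches and mark no sharp boundary: they held 0 to 57 members in windows 1 to 7, 0 to 16 in windows 8 and 9 and 8 to 28 in windows 10 and 11. Within window 8, 16 of the 60 members lay between 73 and 74 Mb, which holds Ago2, Ptk2 and the last part of Trappc9, most of which lies in the megabase before. The densities in the 3 stretches were 26.1, 24.8 and 32.7 per Mb of gene sequence at 0.1, 0.5 and 1 µM in windows 1 to 7. They were 6.81, 6.52 and 8.73 in windows 8 and 9, and 24.4, 21.4 and 25.5 in windows 10 and 11, so the order of the stretches was the same in each list.

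Gene length differed between the stretches, with medians of 40.9, 12.1 and 14.2 kb. The shares are therefore also given by class of length. Of genes under 10 kb, 56.2% in windows 1 to 7 had a member (18 of 32), 19.3% in windows 8 and 9 and 37.3% in windows 10 and 11, against 17.2% on the other chromosomes. Of genes of 10 to 50 kb, the shares were 83.3%, 28.9% and 65.3%, against 38.7%. Of genes of 50 to 100 kb, they were 91.7% (33 of 36), 41.7% (15 of 36) and 93.8% (15 of 16), against 49.4%. Of genes of 100 kb or more, they were 100% (68 of 68, interval 94.7% to 100%), 61.1% (11 of 18) and 93.3% (14 of 15), against 58.4%. Windows 8 and 9 had the lowest share in each class, while windows 10 and 11 were below windows 1 to 7 in the classes other than 50 to 100 kb, with overlapping intervals for genes under 10 kb and of 100 kb or more. A region lay at an end of 54.9%, 22.0% and 41.6% of the genes in the 3 stretches, against 25.8% elsewhere. The part of gene length in these differences was not tested.

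The 25 members with the best mean rank among those listed at all doses had 12 at a gene end and 13 inside a gene. Of these, 20 lay in windows 1 to 7, 1 in windows 8 and 9 and 4 in windows 10 and 11. Their widths ran from 594 to 2431 bp, with a median of 1167 bp. All had a place near the top of every list. The last of the 25 had a mean percentile of 96.6 and the next member outside 96.5, so the limit separates nothing. Because they were chosen by score, their scores are a description.

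Several of these regions lay at genes of membranes and transport. The region at an end of Sdc2, the heparan sulphate proteoglycan syndecan-2, came first by mean rank, with 425, 240 and 427. Retreg1, a receptor for autophagy of the endoplasmic reticulum, scored 194, 138 and 254 at a region of 1167 bp inside the gene (chr15:25914917-25916083). Sybu, syntabulin, which links kinesin to its cargo, scored 261, 135 and 297. Ext1, a glycosyltransferase that builds heparan sulphate, scored 105, 51 and 132 at an end of the gene. Efr3a, an anchor of a lipid kinase at the plasma membrane, scored 78, 62 and 102. Trappc9, of the TRAPP complexes that tether vesicles, scored 96, 42 and 109 and was the one in windows 8 and 9.

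Others lay at signalling, cytoskeletal and nuclear genes. Prlr, the prolactin receptor, scored 121, 90 and 192 inside the gene (chr15:10330295-10331485). Oxr1, a gene that protects against oxidative damage, scored 107, 77 and 200 (chr15:41611896-41612767). The region shared by Skp2, the substrate receptor of an SCF ubiquitin ligase that targets cell cycle inhibitors, and Lmbrd2 scored 67, 69 and 170. Myo10, the myosin of filopodia, scored 86, 63 and 109, and the kinesin Kif21a 74, 42 and 112. Rrm2b, a ribonucleotide reductase subunit induced by p53, scored 61, 77 and 77. Drosha, the nuclease that starts microRNA maturation, scored 58, 40 and 109 inside the gene. Utp23, a factor of ribosomal RNA processing, scored 83, 79 and 141. The remaining regions lay at Emc2, Prickle1, Dap, Ano6, Tg, St3gal1, Ank and Azin1. None of the 25 ranked below percentile 95.2 in any of the lists.

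**Figure D3:**
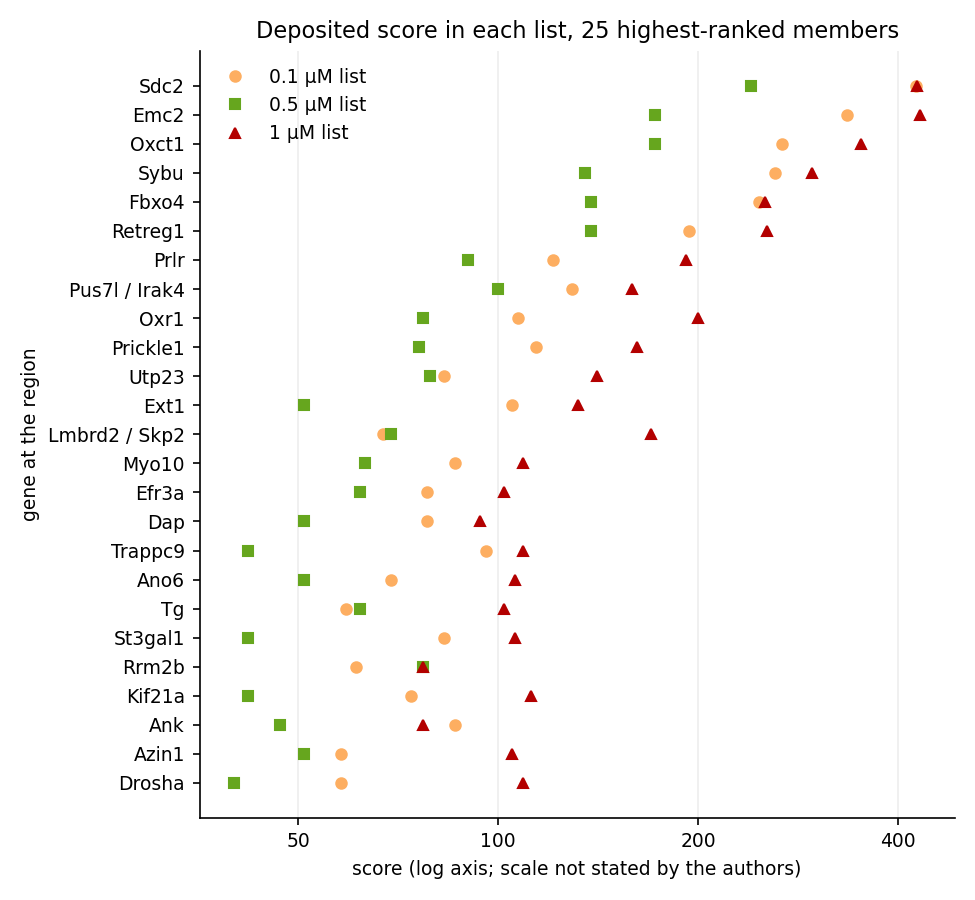
Deposited score (log axis, scale not stated by the authors) of the 25 members with the best mean rank, 1 row for each region with the gene it lies at, and 1 point for each of the 0.1, 0.5 and 1 µM lists. The regions run from Sdc2 (425, 240 and 427) to Drosha (58, 40 and 109).

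A high score in one list did not always go with a high score in another. Among the 512 members listed at all doses, the ranks of 112 (21.9%) lay 50 or more percentile points apart between lists, against 19.0% for other genic regions. In members of 1000 bp or more the share was 42 of 138 (30.4%), against 21.7% elsewhere. The region at the start of Drosha scored 196, 130 and 5. One at an end of Eny2 scored 520, 7 and 9, the first being the highest score of any member at 0.1 µM. A gene-end region shared by Dcaf13 and Slc25a32, a mitochondrial folate carrier, scored 9, 15 and 133, and one at an end of Laptm4b, a lysosomal membrane protein, 49, 44 and 11. These regions were listed at all doses, and the score alone does not order the doses.

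Members also crowded into single genes. A member at more than 1 gene, as 56 were, counts for each. Of the 776 genes, 365 had none, 188 had 1, 140 had 2 to 4, 46 had 5 to 9 and 37 had 10 or more. The 37 genes held 649 members and had a median length of 266 kb, against 18.2 kb for all genes. Csmd3, a very large gene for a membrane protein of the brain, held 73 members over 1212 kb. Only 6 of them were listed at all doses, and 28 were listed at 0.1 µM only, 13 at 0.5 µM only and 22 at 1 µM only. Ctnnd2, the neural catenin delta-2, held 39, of which 11 were listed at all doses. Oxr1 held 28 with 12 at all doses, Trio, a guanine nucleotide exchange factor, 27 with 11, and Myo10 25 with 10. The cadherin genes Cdh18 and Cdh12 held 27 and 22, of which 3 each were listed at all doses. With lengths of 929 and 1150 kb, and 1 kb added on both sides, they had 2.90 and 1.91 members per 100 kb, below the 35.1 per Mb of all chromosome 15 genes. Pdzd2, a PDZ domain protein, held 20, Fbxl7, an F-box protein, 19, and Ccdc152 19.

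The genes with many members differed in how often the lists shared them. Over the 50 genes with 8 or more members, the share listed at all doses had a median of 29.1% and ran from 5.26% to 75%. It was 75% at St3gal1 (9 of 12), Trappc9 (6 of 8) and Dap (6 of 8), and 61.1% at Retreg1 (11 of 18). At Fbxl7 2 of 19 were shared, and at Ccdc152 1 of 19. Some of the genes leaned to 1 list. At Rgs22, 6 of 8 members were listed at 1 µM only, at Rai14 5 of 12. At Prlr 4 of 9 were listed at 0.5 µM only, at Skp2 4 of 10 and at Cdh12 9 of 22. At Slc2a13, a myo-inositol transporter, all 12 members were in the 0.1 µM list and 5 of them in no other. These genes were picked for that share, so it is a description.

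**Figure D4:**
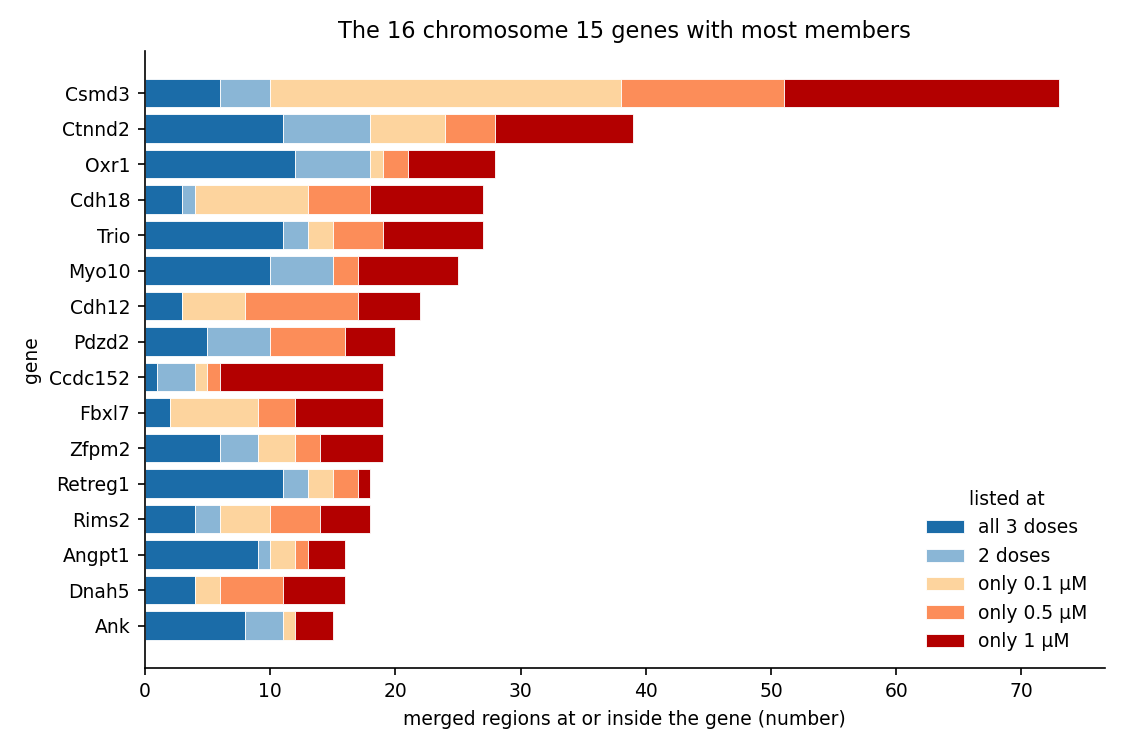
Number of members at or inside each of the 16 genes of chromosome 15 with most members (horizontal bars), split by the lists that held them. Csmd3 has 73, with 6 listed at all doses, and Ccdc152 has 19, with 13 listed at 1 µM only.

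Among the 37 genes with 10 or more members, Ccdc152, the neighbour of Selenop, had the most per unit of length. Selenop encodes selenoprotein P, which the liver secretes to carry selenium to other organs. Together Ccdc152 and Selenop held 24 members within 34330 bp (chr15:3269440-3303769), with a median gap of 826 bp. The 0.1, 0.5 and 1 µM lists held 7, 4 and 22 of them, and 15 were listed at 1 µM only. Their scores stayed low, at most 14, 15 and 16 in the 3 lists. The widest, with its midpoint 68 bp inside the start of Selenop, spanned 2880 bp, was listed at all doses and scored 4, 15 and 12. Again with 1 kb added on both sides of a gene, Ccdc152 had 74.7 members per 100 kb and Selenop, with 8 members, 68.1, against a median of 6.01 over the 37 genes. Over all 776 genes the highest value was 86.1, at Gm41291, a gene model of 1.49 kb with 3 members.

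The widest members that a list lacked were modest in score. Listed at 0.1 µM only were regions of 566 bp in Csmd3, 517 bp in Has2, a hyaluronan synthase, and 510 bp in C7, a component of the complement attack complex, with scores of 6, 8 and 7. At 0.5 µM only they lay in Mroh2b (606 bp), at an end of Eif3h, a subunit of a translation initiation factor (594 bp), and of Nckap5l (520 bp), with scores of 5, 9 and 12. At 1 µM only they lay in Myo10 (722 bp), Plcxd3 (687 bp) and Selenop (676 bp), with scores of 9, 9 and 10. The 0.1 and 0.5 µM lists alone shared regions in Tmem106c and Slc2a13, among others, the 0.1 and 1 µM lists in Marchf11 and Zhx2 and at Cerk. The 0.5 and 1 µM lists alone shared regions in Tns2 (1233 bp, scores 7 and 10), at Rnf19a (903 bp, 16 and 9) and in Rad1 (821 bp, 10 and 17).

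The genes were further grouped in 14 lists drawn up from textbook function, and these were set against the 53.0% of all chromosome 15 genes that had a member and the 34.5% that had one listed at all doses. Over all 776 genes the median was 1 member per gene. The lists differ in gene length and in where their genes lie, so a count describes the list and is not read as particular to its function. Counts by stretch stand beside the shares over all genes there. These were 85.8% in windows 1 to 7, 27.9% in windows 8 and 9 and 58.4% in windows 10 and 11. They were also drawn up with earlier results of these data known, so the comparison is not an independent one.

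Genes of chromatin and chromosome structure had a member in 21 of 30 cases and one listed at all doses in 14 (median 1 member). Rad21 scored 119, 22 and 175 at a region of 2134 bp, and Nipbl 19, 23 and 38 at one of 2267 bp. Both regions had their midpoint more than 1 kb inside these genes and count as gene ends through another, overlapping or neighbouring gene. Trps1, a GATA-type repressor, held 10 members, 5 of them listed at all doses. Yaf2, of Polycomb complexes, scored 33, 20 and 48, and Phf20l1, a reader of methylated lysine, 23, 22 and 68. All 7 genes of this list in windows 1 to 7 and all 9 in windows 10 and 11 had a member, and 5 of 14 in windows 8 and 9. Those without were Recql4, H1f0, Cbx6, Ep300, L3mbtl2, Phf5a, Tcf20, Smc1b and Brd1.

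Genes of DNA repair, replication and the cell cycle had a member in 15 of 20 cases, 10 at all doses (median 1). Besides Fbxo4, Skp2, Rrm2b and Rad21, these were led by Ccnt1, the cyclin of the elongation factor P-TEFb, with 40, 36 and 42, and Rad1, of the checkpoint clamp, with 26, 38 and 49. No member was found at Recql4, Dmc1, Xrcc6, Tubgcp6 and Rpap3. Transcription factor genes had a member in 19 of 33 cases, 11 at all doses (median 1). Zfp622 scored 253, 23 and 479, Zfat 31, 36 and 27, Nfe2, a partner of small Maf proteins, 27, 27 and 9, and Tfcp2 6, 30 and 69. Myc had 2 members, neither of them at all doses; the better one scored 10 at 0.1 µM and 8 at 1 µM and was not in the 0.5 µM list. Zfpm2, a cofactor of GATA proteins, held 19. The 14 without a member were Osr2, Mafa, Maf1, Scrt1, Zfp7, Sox10, Maff, Atf4, Ppara, Dbx2, Zfp641, Pou6f1, Sp7 and Sp1.

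Genes that handle stress, metals and oxidants had a member in 13 of 21 cases, 6 at all doses (28.6%, against 34.5% of all chromosome 15 genes, median 1). Those 6 were Oxr1, Ndrg1, a gene induced by hypoxia and metals, with 21, 47 and 76, Slc11a2, the divalent metal transporter DMT1, with 19, 19 and 18, Trib1 with 17, 9 and 20, Creld2, a chaperone-like protein of the endoplasmic reticulum, with 24, 5 and 30, and Selenop. Hsf1, the heat shock factor, had 1 region, listed at 1 µM only with a score of 13. Txn2, mitochondrial thioredoxin, had 1 at 0.1 µM only with a score of 5. None was found at Parp10, Grina, Oplah, Slc39a4, Maff, Atf4, Fkbp11 and Tmbim6. Of the 21, 13 lie in windows 8 and 9, and 7 of those had a member.

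Genes of liver secretion and metabolism had a member in 24 of 40 cases, 19 at all doses (median 1). By stretch these were 17 of 18 genes in windows 1 to 7, 1 of 14 in windows 8 and 9 and 6 of 8 in windows 10 and 11. Besides Oxct1 and Prlr they were led by C9, the pore-forming complement protein, with 50, 69 and 66, Dab2, an endocytic adaptor, with 49, 26 and 46, Ghr, the growth hormone receptor, with 48, 21 and 38, and Nadk2, mitochondrial NAD kinase, with 26, 29 and 37. The 1 gene in windows 8 and 9 was Srebf2, the regulator of cholesterol synthesis, with 14, 14 and 20. Among those without a member were Ugt3a1, Dgat1, Gpt, Adsl, Cyp2d22, Cyp2d10, Cyp2d9, Cyp2d26, Pnpla3, Ppara, Miox, Tymp, Cpt1b, Slc38a4 and Soat2.

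Mitochondrial genes had a member in 8 of 17 cases, 4 at all doses (median 0): Oxct1, Samm50, a subunit of the outer membrane sorting machinery, with 21, 19 and 38, Rida with 21, 17 and 37, and Slc25a32. Ndufb9, of complex I, was listed at 0.1 and 1 µM with scores of 8 and 7, and Cox6c, Cyc1, Slc25a17, Ndufa6, Trmu, Sco2, Cox14 and Atp5g2 were among those with none. Translation genes had a member in 14 of 22 cases, 12 at all doses (median 1). Eif3h held 11 members, the best with 88, 30 and 102, Rpl30 scored 39, 62 and 73, Tars, the threonyl-tRNA synthetase, 29, 95 and 135, Brix1, of ribosome assembly, 26, 38 and 49, and Pabpc1, the poly(A)-binding protein, 22, 40 and 47. All 10 genes of this list in windows 1 to 7 had a member and 1 of 9 in windows 8 and 9. Without one were Eef1d, Puf60, Exosc4, Rpl8, Eif3l, Rpl3, Snu13 and Rrp7a.

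Genes of proteostasis and protein transport had a member in 19 of 22 cases, 16 at all doses (median 2), all but Sharpin, Vps28 and Kdelr3. Besides Emc2 they were led by Copz1, a coatomer subunit, with 35, 38 and 61, Ago2, the slicer of RNA interference, with 22, 21 and 48, Otulin, a linear deubiquitinase, with 22, 25 and 26, Golph3 with 35, 33 and 14, and Laptm4b. Genes of cell adhesion and matrix had a member in 23 of 29 cases, 20 at all doses (median 4 members, median gene length 130 kb). Besides Sdc2 and Ext1 these were led by the cadherins Cdh18 with 55, 42 and 65, Cdh10 with 52, 51 and 56 and Cdh6 with 58, 23 and 43, and by Ccn4, a matricellular protein, with 26, 20 and 86. Without one were Cthrc1, Parvb, Parvg, Fbln1, Col2a1 and Itgb7.

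Cytoskeletal genes had a member in 19 of 22 cases, 14 at all doses (median 2). After Sybu, Myo10 and Kif21a came Rai14 with 52, 47 and 84, Trio with 50, 28 and 64 and Basp1 with 49, 22 and 66, and Rac2, Triobp and Krt5 had none. The keratin genes of liver epithelium differed: Krt8 was listed at all doses with 10, 9 and 10 at a gene end, and its partner Krt18 at 0.5 and 1 µM with 8 and 8. Signalling genes had a member in 23 of 32 cases, 19 at all doses (median 2). After Prlr and Irak4 came Angpt1, a ligand of the TIE2 receptor, which held 16 members and scored 59, 34 and 79, Il7r with 38, 38 and 77, Ywhaz, a 14-3-3 protein, with 29, 39 and 57, and Lrp12 with 40, 22 and 46. Without one were Fzd6, Csnk1e, Tab1, Mapk12, Mapk11, Adcy6, Wnt10b, Wnt1 and Acvr1b.

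Genes of neurons and other lineages had a member in 14 of 25 cases, 10 at all doses (median 1). Thyroglobulin, Tg, the thyroid hormone precursor, scored 59, 62 and 102. The list also holds the cadherins Cdh18 and Cdh12, the second with 45, 12 and 57, and Il7r. Nell2 scored 29, 21 and 32 and Fyb 112, 79 and 5. Gdnf, Arc, Cacng2, Sox10, Grap2, Mapk8ip2, Shank3, Syt10, Prph, Kcnh3 and Scn8a had none. The Hoxc and Ly6 clusters were nearly empty. None of the 9 Hoxc genes, which set position along the body axis, had a member at any dose. Of the 14 genes of the Ly6 cluster, small surface proteins, Ly6e alone had one, listed at 0.1 and 1 µM with scores of 7 and 9. The genes of these clusters are short, with medians of 5.10 and 3.51 kb. Of genes under 10 kb, 37.3% had a member in windows 10 and 11, where the Hoxc genes lie. The share was 19.3% in windows 8 and 9, where the Ly6 genes lie, and 17.2% on the other chromosomes.

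**Figure D5:**
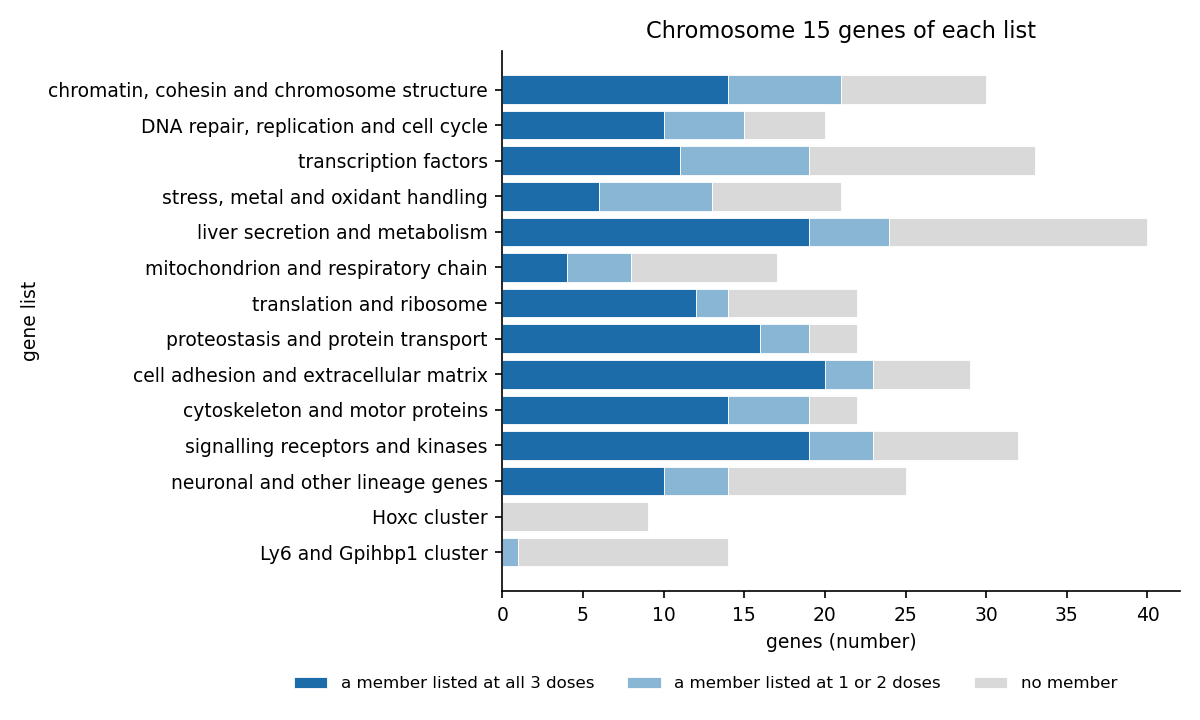
Number of genes in each of the 14 lists of chromosome 15 genes (horizontal bars), split into those with a member listed at all 3 doses, those with a member at 1 or 2 doses and those with none. The proteostasis, cytoskeleton and adhesion lists have members at 19 of 22, 19 of 22 and 23 of 29 genes, and the Hoxc list at 0 of 9.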

How the data were processed

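ATAC-seq was run on Hepa-1c1c7 cells at 4 potassium chromate doses with 2 libraries each. The deposited files are 3 region lists with a score per region, a whole number of at least 4. Bowtie2, Picard, MACS2 and mm10 are named, without versions or roles, per the submitters' processing notes. The sources used here do not state how the control, Tn5 read shift, duplicates and threshold were handled.

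Regions were merged across lists (overlap of at least 1 bp) and placed by midpoint against RefSeq genes of GRCm38.p6 with a 1 kb window (Python 3.11.15, pandas 2.3.3). A merged region takes the highest score of each list. Rank percentiles are within a list (100 is highest). Coordinates are 1-based mm10. No test was run, since a list has no replicate. Merging and placing were tested on simulated lists. Named were the 25 best mean ranks at all doses, the 10 genes with most members, the 3 widest members per incomplete dose pattern, up to 6 genes per gene list and those without a member, and promoters covered at all doses with the strict CTCF motif. 4 list names (Fastkd3, Mterf3, Mtrr and Adcy2) matched no gene. A few genes that these rules name are not reported here. Dose-leaning genes, stretches and length classes were chosen after values were seen. The members, gene lists and motifs were chosen with earlier results of these data known.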

Additional observations from a re-analysis of the deposited data

How the results depend on the processing

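8 alternatives were planned for the 9 summary values, giving 70 values, of which 49 stayed within 1.5 times (counts and the ratio) or within the main 95% interval (percentages). The regions of each list at or above its median score gave 672 members, with 436, 434 and 485 at 0.1, 0.5 and 1 µM, 30.7% at a gene end, 52.1% of the chromosome 15 regions genic and 39.9% of genes with a member. Those at or above its median width gave 735 members, with 475, 454 and 588 by dose, 44.4% at all doses, 30.3% at a gene end, 53.5% genic and 42.3% of genes. Both use fewer regions by construction. Without the 1 µM list, 47.3% of the members were in both remaining lists and 24.5% lay at a gene end. With no window around genes, 41.6% of the chromosome 15 regions were genic and 41.9% of genes had a member. A window of 2500 bp gave 31.1% at a gene end and 47.6% genic. The ratio of regions per gene, 3.49, ran from 2.86 to 3.92 over these alternatives and the merge by 50% overlap, placing by any overlap and the 19907 named genes.

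The stretches, added after seeing the data, moved 22 of 27 values. Windows 1 to 7 gave 14.4% at a gene end, 41.5% genic, 85.8% of genes and a ratio of 8.85. Windows 8 and 9 gave 127 members (71, 68 and 91 by dose), 27.6% at all doses, 59.1% at a gene end, 77.0% genic, 27.9% of genes and a ratio of 0.70. Windows 10 and 11 gave 251 members (180, 158 and 188), 43.0%, 35.5%, 60.3%, 58.4% and 2.24 in the same order. The high ratio therefore does not hold in windows 8 and 9.

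No paired analysis was possible because a dose has 1 list for both libraries. No library was left out for the same reason. Depth is unknown.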
